A study of Mus with 18 samples.

Results

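The CXC chemokines are small secreted proteins named for a cysteine pair with a single residue between them, and 10 of their genes are described here: Cxcl1, Cxcl2, Cxcl3, Cxcl5, Cxcl9, Cxcl10, Cxcl11, Cxcl12, Cxcl14 and Cxcl16. They were chosen by gene symbol from the 21401 symbols listed in each of the 2 expression tables, and all 10 symbols were found in both tables. RNA was sequenced from 18 libraries, 9 labelled as C2C12 cells, a mouse myoblast line, and 9 from the gastrocnemius muscle of wild type male C57BL/6 mice, with 3 libraries for each of control, LPS and LPS-MIC-1. MIC-1 is moringa isothiocyanate-1, a compound from seeds of Moringa oleifera, and LPS is lipopolysaccharide of the bacterial cell wall, so that the comparisons ask how each chemokine transcript stood after LPS and how it stood when MIC-1 was also given.

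Per the labels, the control cells (genotype wild type) had a saline vehicle, the LPS cells had 1 μg/mL LPS and the LPS-MIC-1 cells had 1 μg/mL LPS with 10 μM MIC-1 for 24 h. The study's text names a lower dose of MIC-1 and an ethanol vehicle, and its methods give 24 h of treatment for the cells in general, while the labels give no time for the LPS and control cells. The LPS mice had 10 mg/kg LPS into the peritoneum, the LPS-MIC-1 mice had in addition 80 mg/kg MIC-1 by gavage on each of the 3 days before LPS, the control mice had vehicle, and muscle was taken 16 h after LPS. No age is given for the mice, no source used here says whether a muscle library held 1 animal or a pool, and nothing says that the cell libraries came from separate cultures. The p-values therefore measure only the spread between these libraries, which may be technical.

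Chemokines guide leukocytes along gradients through G-protein-coupled receptors. Cxcl1, Cxcl2, Cxcl3 and Cxcl5 carry the ELR motif (glutamate, leucine, arginine) before the cysteines, bind Cxcr2 and draw neutrophils, and their transcription is typically switched on by NF-kB. Cxcl9, Cxcl10 and Cxcl11 bind Cxcr3, draw T and NK cells and are classic interferon targets, while Cxcl12, the ligand of Cxcr4 and Ackr3, Cxcl14 and the membrane-bound Cxcl16 are made in many tissues without an inflammatory stimulus. In the RefSeq annotation of GRCm38.p6, used for names and neighbours only, Cxcl5, Cxcl3, Cxcl1 and Cxcl2 lay in a single cluster on chromosome 5 together with Ppbp, Pf4 and Cxcl15. On the same chromosome, Cxcl10 lay next to Cxcl11, with Art3 between Cxcl9 and Cxcl10. Cxcl12 lay on chromosome 6, Cxcl16 on chromosome 11 and Cxcl14 on chromosome 13. Cxcl11 carried the biotype transcribed pseudogene in that assembly, so its values are transcript levels and say nothing of a protein.

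Values are given in the order of replicates 1, 2 and 3 and are FPKM, fragment counts scaled to transcript length and to the sequenced total of the library, as deposited. The summed FPKM of a library was between 547475 and 797734 in the C2C12-labelled set and between 634197 and 740810 in muscle, while the number of reads per library was unknown. Relative to the first control library, 1 read was worth 0.978 to 1.39 times the FPKM in the C2C12-labelled set and 0.899 to 1.01 times in muscle. The marker genes of the labelled cell type went against the C2C12 label in 6 of its 9 libraries. The summed FPKM of 8 myoblast markers (Des, Myod1, Cdh15 and others) was between 0.136 and 0.361 in the control libraries and between 0.301 and 1.99 in the LPS libraries, against 712 to 925 in the LPS-MIC-1 libraries. The 9 macrophage markers found (Lyz2, Csf1r, Adgre1 and others) ran the other way, with sums between 9366 and 9400 in control, between 5150 and 5340 in LPS, and of 137, 6.12 and 2.23 in LPS-MIC-1 replicates 1, 2 and 3. In muscle, the 10 muscle fibre markers summed to between 158269 and 212806 FPKM in all 9 libraries, but Lcn2 and Saa3, acute-phase genes that LPS induces strongly, were at 0.336 to 1.34 and 0.871 to 1.33 FPKM in the libraries labelled LPS and at 1162 to 1318 and 489 to 547 FPKM in those labelled LPS-MIC-1. Of 6 such LPS-response genes, Lcn2, Saa3, Il6 and Nos2 were called higher and Tnf and Il1b were not in LPS against control of the C2C12-labelled set, where 10.9% of all tested genes were called higher. All 6 had an unadjusted limma p under 0.05 there, and their median log2 fold change was 8.71. In muscle LPS against control, Saa3 was called higher and Lcn2 was not, the others lying below the filter, where 0.654% of all tested genes were called higher. Every group below is therefore named by its label only, and each direction is a difference between libraries carrying those labels. In bulk samples such as these, fewer cells of a type and less RNA per cell cannot be told apart, and in the C2C12-labelled set the treatment and the change of marker genes cannot be told apart either.

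In the C2C12-labelled libraries the ELR chemokines split into 2 pairs with opposite patterns, Cxcl2 with Cxcl3 highest under LPS and Cxcl1 with Cxcl5 highest under LPS-MIC-1. Cxcl2, which is made in quantity by macrophages exposed to bacterial products, was at 174, 171 and 176 FPKM in control, at 8374, 8322 and 8405 FPKM in LPS, and at 232, 6.15 and 2.87 FPKM in LPS-MIC-1. Cxcl3 was listed at 0, 0 and 0.118 FPKM in control, at 97.7, 100.005 and 97.4 FPKM in LPS, and at 2.51, 0 and 0.129 FPKM in LPS-MIC-1. For both genes every LPS library lay above all other libraries, and within LPS-MIC-1 replicate 1 stood far above its replicates. That library also held the largest trace of macrophage markers, 2.60% of the LPS mean, beside 2.77% of the LPS mean for Cxcl2 and 2.55% for Cxcl3, and its ratio of Cxcl2 to Cxcl3 FPKM was 92.3 against 83.2 to 86.3 in the LPS libraries. In that library Cxcl10 also lay near this share, at 2.47% of the LPS mean. Other chemokines there differed from it, since Cxcl11 kept 22.6% and Cxcl14 6.43% of the LPS mean, and Cxcl16 was listed at 0. The part of the macrophage trace in these levels was not tested.

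Cxcl1, also known as KC, had 0.0647, 0.0639 and 0 FPKM in control, 0.0762, 0.0771 and 1.15 FPKM in LPS, and 402, 498 and 574 FPKM in LPS-MIC-1. Cxcl5 had 0.0680, 0.135 and 0.0333 FPKM in control, 0.161, 0.243 and 2.09 FPKM in LPS, and 457, 386 and 563 FPKM in LPS-MIC-1. The LPS-MIC-1 libraries thus stood apart from the other 6 for both genes, and among the rest the third LPS replicate was the highest. By the size of its FPKM steps, Cxcl1 in control replicates 1 and 2 and LPS replicates 1 and 2 amounted to 1 read each. LPS replicate 3 also had the largest trace of myoblast markers among the LPS libraries, 0.251% of the LPS-MIC-1 mean, beside 0.235% for Cxcl1 and 0.447% for Cxcl5. The part of that trace was not tested.

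The ligands of Cxcr3 were low in this set apart from Cxcl10 under LPS. Cxcl9 did not exceed 0.104 FPKM in any of the 9 libraries and was not tested. Cxcl10 was at 3.60, 3.08 and 3.05 FPKM in control, 23.3, 18.8 and 21.3 FPKM in LPS, and 0.522, 0.543 and 0.920 FPKM in LPS-MIC-1, so that the 3 groups did not overlap. Unlike Cxcl2 and Cxcl3, Cxcl10 did not have its highest LPS-MIC-1 value in replicate 1, and the 3 replicates kept 2.47%, 2.57% and 4.35% of the LPS mean. Cxcl11 followed a similar order under LPS, with 0.177, 0.351 and 0.173 FPKM in control, 3.73, 3.42 and 3.32 FPKM in LPS, and 0.789, 0.120 and 0.228 FPKM in LPS-MIC-1, where control and LPS-MIC-1 overlapped.

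Among the tissue-expressed members, Cxcl12, a retention signal made by stromal cells, was listed at 0 in the 3 control libraries, at 0, 0 and 0.0197 FPKM in LPS, and at 16.1, 10.4 and 15.02 FPKM in LPS-MIC-1. Mesenchymal markers moved with it, their summed FPKM lying between 0.202 and 0.416 in control, between 0.973 and 2.09 in LPS and between 464 and 562 in LPS-MIC-1, and their part in the difference was not tested. Cxcl14 was at 16.5, 19.0 and 18.7 FPKM in control, 10.3, 9.23 and 11.7 FPKM in LPS, and 0.670, 0 and 0 FPKM in LPS-MIC-1, with no overlap between the groups. Cxcl16, which serves both as an adhesion molecule and, once shed, as a ligand of Cxcr6, was at 6.09, 13.6 and 20.1 FPKM in control and 15.6, 18.5 and 20.8 FPKM in LPS, which overlapped, and was listed at 0 in all 3 LPS-MIC-1 libraries.

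**Figure D1:**
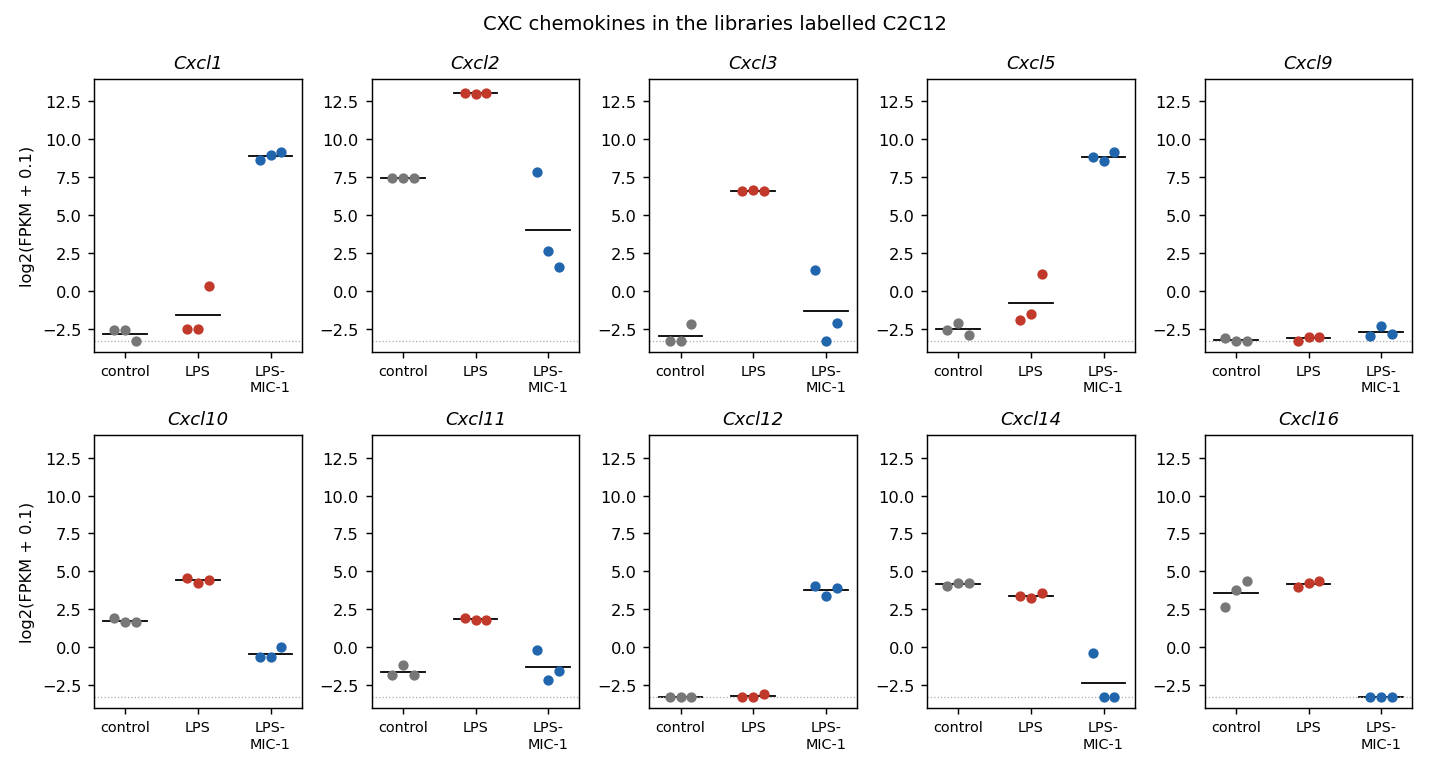
Each panel plots log2(FPKM + 0.1) of 1 gene in the 9 libraries labelled C2C12, with 1 point per library (replicates 1 to 3 from left to right), a bar at the group mean and a dotted line at 0 FPKM. Cxcl2 and Cxcl3 peak in the LPS libraries, where Cxcl2 reaches 8405 FPKM, while Cxcl1, Cxcl5 and Cxcl12 stand above the other groups only in LPS-MIC-1.

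Differences between groups were fitted with limma on log2(FPKM + 0.1) over the genes with a mean above 1 FPKM in the 9 libraries of an experiment, 10877 genes here, and a gene was called at a log2 fold change beyond 1 in either direction with a Benjamini-Hochberg adjusted p under 0.001. The pseudocount of 0.1 makes the fold changes of genes near 0 smaller than the ratio of their FPKM. Of the 10 chemokines, 9 were tested, and 5 of these (Cxcl1, Cxcl3, Cxcl5, Cxcl11 and Cxcl12) passed the filter through their highest group alone, so that the counts of calls and the medians are given only as a description. An exact permutation test of 3 against 3 libraries cannot give a p under 0.1.

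Against control, LPS libraries labelled C2C12 had 3 of the 9 tested chemokines called higher and 0 called lower, where 10.9% of all tested genes were called higher and 10.0% lower. The median log2 fold change of the 9 was 1.74, beside 0 over all tested genes, and it was 0.78 without LPS replicate 3. Cxcl3 was higher by 9.57 on the log2 scale (SE 1.05, limma adjusted p = 8.48e-05), Cxcl11 by 3.47 (SE 0.475, limma adjusted p = 3.08e-04) and Cxcl10 by 2.66 (SE 0.201, limma adjusted p = 9.92e-06). Cxcl2 had a fitted difference of 5.59 with an SE of 1.39 and missed the call at a limma adjusted p of 0.00788, although its LPS and control libraries lay far apart. The spread in that fit came from the LPS-MIC-1 group, and without LPS-MIC-1 replicate 1 the adjusted p for Cxcl2 was 1.47e-06 at the same difference of 5.59. The call for Cxcl11 was lost without any 1 of the 3 LPS libraries or of control replicates 1 and 3, with adjusted p-values from 0.00166 to 0.00196.

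The remaining tested chemokines were not called between LPS and control. Cxcl14 had a difference of -0.79 (SE 0.712, limma adjusted p = 0.368) although its groups did not overlap, in a fit that also held the uneven LPS-MIC-1 libraries at 0.670, 0 and 0 FPKM. Cxcl1 was at 1.29 and Cxcl5 at 1.74 on the log2 scale, and these fell to 0.34 and 0.78 without LPS replicate 3, so most of each difference rested on that library. Cxcl16 was at 0.61 (limma adjusted p = 0.198). Counting groups that did not overlap, 6 of the 9 were higher and 1 was lower in LPS, where 39.4% and 40.1% of all tested genes had such groups. Cxcl1 and Cxcl5 were among the 6 in FPKM but not in reads. Cxcl1 had 1 read in control replicates 1 and 2 and LPS replicates 1 and 2. Cxcl5 had 4 reads in control replicate 2 and in LPS replicate 1. A read was worth 1.18 to 1.19 times the FPKM of the first control library in the LPS libraries.

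Between LPS-MIC-1 and LPS, all 9 tested chemokines were called, 3 higher and 6 lower, where 24.3% of all tested genes were called higher and 25.6% lower. The median log2 fold change of the 9 was -4.83, beside -0.05 over all tested genes. Higher in LPS-MIC-1 were Cxcl1 (log2 difference 10.48, SE 0.709), Cxcl5 (9.64, SE 0.724) and Cxcl12 (7.01, SE 0.189), with limma adjusted p-values of 1.89e-06, 3.66e-06 and 1.31e-08. Lower were Cxcl2 (-9.01, SE 1.39, limma adjusted p = 3.48e-04), Cxcl3 (-7.98, SE 1.05), Cxcl14 (-5.73, SE 0.712), Cxcl10 (-4.83, SE 0.201) and Cxcl11 (-3.16, SE 0.475). Cxcl16 was also called lower (limma adjusted p = 3.26e-07), with no fold given because the LPS-MIC-1 libraries were listed at 0. Without LPS-MIC-1 replicate 1, the library with the macrophage trace, Cxcl2 stood at -10.92 and Cxcl3 at -9.35, and without LPS replicate 3 Cxcl1 stood at 11.43 and Cxcl5 at 10.60. Cxcl2 lost its call without any 1 of the LPS libraries or LPS-MIC-1 replicate 2 (adjusted p from 0.00175 to 0.00188), and Cxcl11 without any 1 of the LPS libraries or LPS-MIC-1 replicate 3 (0.00145 to 0.00167). The LPS-MIC-1 libraries lay wholly above LPS for 3 of the 9 and wholly below for 6, where 41.8% and 43.7% of all tested genes did.

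LPS-MIC-1 was also set against control, which shares its libraries with the preceding comparisons. Of the 9 tested chemokines, 3 were called higher and 3 lower, where 21.1% of all tested genes were called higher and 22.1% lower, and the median was 0.30 beside -0.06 over all tested genes. This median had no stable sign, at -0.27 without LPS-MIC-1 replicate 1 and 0.74 without replicate 2, and between 0.18 and 0.54 without any 1 of the control libraries. Cxcl1 was higher by 11.77 and Cxcl5 by 11.38 on the log2 scale (limma adjusted p = 1.06e-06 and 1.50e-06), and Cxcl12 was called higher over control libraries listed at 0 (limma adjusted p = 1.12e-08). Cxcl14 was at -6.52, Cxcl10 was at -2.17 (SE 0.201, limma adjusted p = 1.57e-05), and Cxcl16 was again lower with LPS-MIC-1 at 0. Cxcl2 was at -3.42 with overlapping groups and was not called (limma adjusted p = 0.0494). Without LPS-MIC-1 replicate 1, Cxcl2 was called at -5.33 (adjusted p = 1.18e-06). Cxcl3 (1.59) and Cxcl11 (0.30) did not pass, and without that library Cxcl3 stood at 0.22 and Cxcl11 at -0.27. Libraries lay wholly above control for 3 of the 9 and wholly below for 3, where 40.3% and 42.7% of all tested genes did.

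In muscle the order of the chemokines was different, and libraries labelled LPS stayed close to control. Cxcl1 was at 0.286, 0.283 and 0.0951 FPKM in control, 0.0960, 0.193 and 0.0953 FPKM in LPS, and 12.6, 14.02 and 11.7 FPKM in LPS-MIC-1. In reads, the step size of Cxcl1 made the control values 3, 3 and 1 reads and the LPS values 1, 2 and 1 reads. Cxcl2 was listed at 0 in control and at 0, 0.0837 and 0.0825 FPKM in LPS, and stood at 3.65, 3.82 and 4.95 FPKM in LPS-MIC-1. For both genes the LPS-MIC-1 libraries were far above the other 6, while control and LPS overlapped. Cxcl5 did not follow them to that extent, with 0.1002, 0.0498 and 0.151 FPKM in control, 0, 0 and 0.151 FPKM in LPS, and 0.395, 0.142 and 0.270 FPKM in LPS-MIC-1. Cxcl3 was listed at 0 in all 9 libraries.

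The interferon-inducible pair Cxcl9 and Cxcl10 stood far above the other groups in LPS-MIC-1 muscle. Cxcl9 had 0.622, 0.860 and 1.17 FPKM in control, 0.790, 0.984 and 0.568 FPKM in LPS, and 38.3, 36.3 and 34.3 FPKM in LPS-MIC-1. Cxcl10 had 0.554, 0.628 and 0.475 FPKM in control, 0.0798, 0.482 and 0.158 FPKM in LPS, and 14.2, 12.2 and 16.0 FPKM in LPS-MIC-1. The Cxcl10 values corresponded to 7, 8 and 6 reads in control and to 1, 6 and 2 reads in LPS. Cxcl11, the gene next to Cxcl10, stayed between 0 and 0.445 FPKM in all 9 libraries with overlapping groups and was not tested.

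Cxcl12 and Cxcl14 were the most abundant chemokine transcripts of control muscle and ordered the 3 groups in opposite ways. Cxcl12 was at 28.8, 28.4 and 29.8 FPKM in control, 20.7, 20.7 and 21.2 FPKM in LPS, and 5.74, 6.67 and 5.08 FPKM in LPS-MIC-1. Cxcl14 was at 29.1, 32.7 and 28.9 FPKM in control, 37.7, 41.7 and 35.1 FPKM in LPS, and 54.5, 56.7 and 50.8 FPKM in LPS-MIC-1. In both genes the 3 groups did not overlap. Cxcl16 was listed at 0 in all 9 muscle libraries, and the reason for this was not tested.

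**Figure D2:**
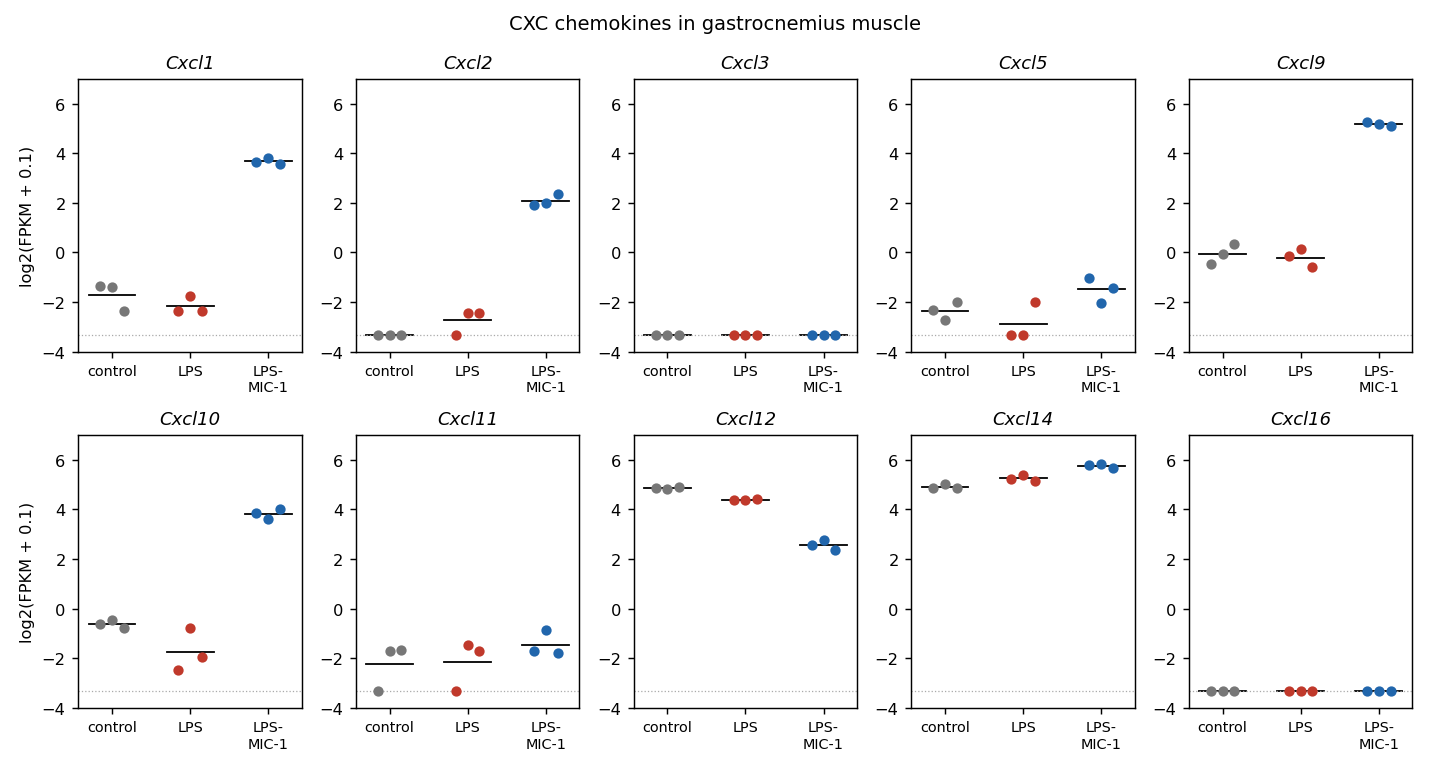
Each panel plots log2(FPKM + 0.1) of 1 gene in the 9 gastrocnemius libraries, with 1 point per library (replicates 1 to 3 from left to right), a bar at the group mean and a dotted line at 0 FPKM. Cxcl1, Cxcl2, Cxcl9 and Cxcl10 stand high in LPS-MIC-1 alone, Cxcl12 steps down from control to LPS to LPS-MIC-1, and Cxcl14 steps up.

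In muscle, 9475 genes passed the filter and calls were made at a limma adjusted p under 0.05 with the same fold threshold. Of the 10 chemokines, 6 were tested, and Cxcl1, Cxcl2, Cxcl9 and Cxcl10 passed the filter through the LPS-MIC-1 group alone. The muscle counts of calls and the medians, in all 3 comparisons, are therefore given only as a description. By limma, LPS against control gave 0 calls among the 6 tested, 3 of which had an unadjusted p under 0.05, where 0.654% of all tested genes were called higher and 0.591% lower, and the median was -0.30 beside 0.01 over all tested genes (-0.16 without LPS replicate 3 and -0.45 without LPS-MIC-1 replicate 3, where 5 were tested). With only the 6 libraries compared, just 2 chemokines, Cxcl12 and Cxcl14, passed the filter, and 0 were called. Most of the 6 were thus near the floor in both of these groups. Cxcl12 was lower by a fitted -0.47 (SE 0.0867, limma adjusted p = 0.00812) and Cxcl14 higher by 0.33 (SE 0.0770, limma adjusted p = 0.0218), both below the fold threshold. These 2 were also the tested chemokines whose LPS and control groups did not overlap, 1 lower and 1 higher, where 17.7% and 18.8% of all tested genes had such groups. Cxcl10 was at -1.11 (SE 0.387, limma adjusted p = 0.0924), and without LPS replicate 2 it was called at -1.59 (adjusted p = 0.00577).

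LPS-MIC-1 against LPS in muscle gave 4 chemokines called higher and 1 lower of the 6 tested, where 9.67% of all tested genes were called higher and 5.44% lower. The 4 called higher were those that passed the filter through LPS-MIC-1 alone, so the filter itself favoured this count and the median. The median log2 fold change was 5.10, beside -0.01 over all tested genes. Cxcl1 was higher by 5.84 on the log2 scale (SE 0.327, limma adjusted p = 1.59e-06), Cxcl10 by 5.56 (SE 0.387, limma adjusted p = 5.94e-06), Cxcl9 by 5.39 (SE 0.230, limma adjusted p = 3.19e-07) and Cxcl2 by 4.81 (SE 0.522, limma adjusted p = 8.58e-05). Cxcl12 was lower, at -1.83 (SE 0.0867, limma adjusted p = 6.08e-07). Cxcl14 was higher by 0.50 (limma adjusted p = 6.49e-04), short of the fold threshold. Of the 6, 5 had LPS-MIC-1 libraries wholly above LPS and 1 wholly below, where 32.5% and 31.7% of all tested genes did. Without the FPKM filter Cxcl5 was also called, at 1.38 (limma adjusted p = 0.0326).

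Against control, the same 5 chemokines were called in muscle LPS-MIC-1, 4 higher and 1 lower, where 9.33% of all tested genes were called higher and 6.12% lower, and the median was 4.84 beside 0.01 over all tested genes. Cxcl1 was at 5.39, Cxcl9 at 5.25 and Cxcl10 at 4.44 on the log2 scale, with limma adjusted p-values of 2.50e-06, 3.58e-07 and 2.21e-05. Cxcl2 was called over control libraries listed at 0 (limma adjusted p = 4.15e-05), and Cxcl12 was at -2.30 (limma adjusted p = 1.40e-07). Cxcl14 was at 0.84 and not called. Of the 6, 5 had LPS-MIC-1 libraries wholly above control and 1 wholly below, where 33.4% and 31.1% of all tested genes did. The third LPS-MIC-1 library had a macrophage marker sum of 174 FPKM against 34.3 and 31.6 in its replicates, and without it Cxcl1 stood at 5.90, Cxcl9 at 5.43, Cxcl10 at 5.46 and Cxcl12 at -1.74 against LPS, while Cxcl2 no longer passed the FPKM filter.

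**Figure D3:**
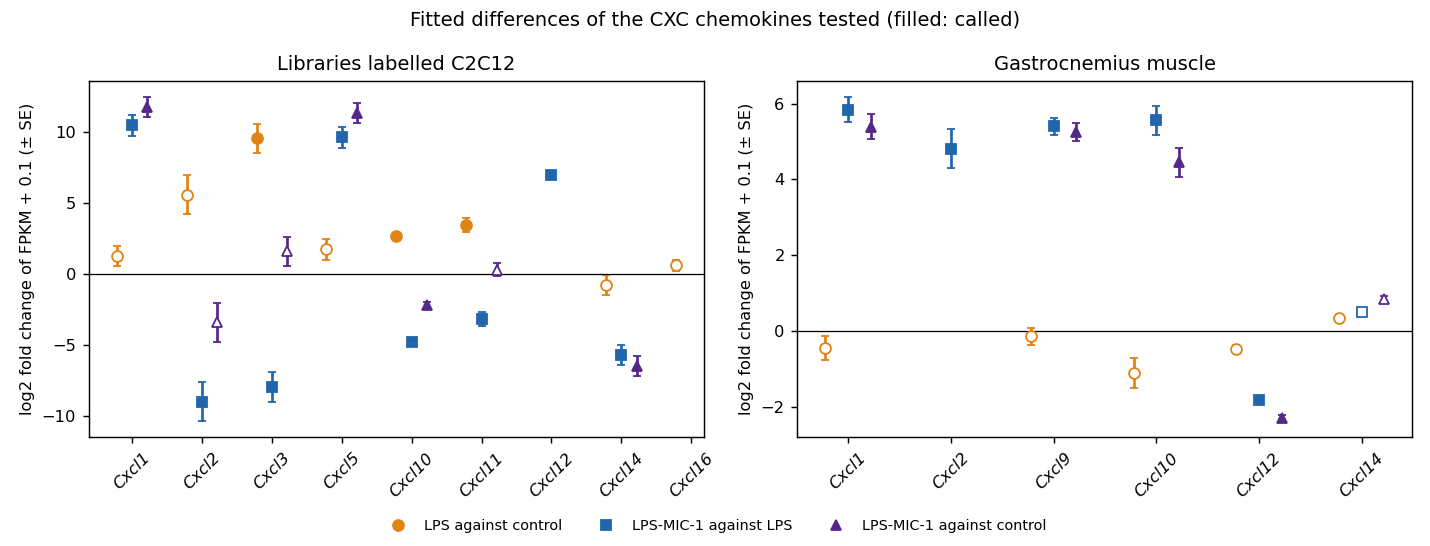
Points are limma log2 fold changes of FPKM + 0.1 with bars of 1 SE for the chemokines tested in each experiment (3 libraries per group), filled where called, and points with a group listed at 0 throughout are left out. In the C2C12-labelled panel Cxcl1 and Cxcl5 lie near 10 against LPS and Cxcl2 and Cxcl3 lie well below 0, and in muscle Cxcl1, Cxcl2, Cxcl9 and Cxcl10 lie between 4.81 and 5.84 against LPS.

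Markers of other cell types moved with the groups in muscle as well. The 7 neutrophil markers found summed to at most 0.750 FPKM in control and 0.910 FPKM in LPS, while the LPS-MIC-1 libraries had between 13.5 and 18.1 FPKM, beside the neutrophil ligands Cxcl1 and Cxcl2. Macrophage markers lay between 17.9 and 20.4 FPKM in control, 23.2 and 26.6 FPKM in LPS, and 31.6 and 174 FPKM in LPS-MIC-1, and T and NK cell markers stayed between 0.384 and 0.884 in all 9. Markers of endothelium, a tissue source of Cxcl12, had sums between 77.1 and 81.7 FPKM in control, 49.6 and 51.4 FPKM in LPS, and 54.1 and 59.4 FPKM in LPS-MIC-1, and mesenchymal markers between 124 and 130, 128 and 130, and 142 and 161 FPKM. The sum and the single genes of the mesenchymal list differed in direction, since 0 of its 7 genes were called higher and 2, Col1a1 (-1.4967) and Col3a1 (-1.21), lower in LPS-MIC-1 against LPS, with a median log2 fold change of -0.54, and the median FPKM of the 7 was between 11.1 and 11.6 in LPS and between 5.25 and 6.43 in LPS-MIC-1, where Cxcl12 was lower too. In that comparison 9.67% of all tested genes were called higher and 5.44% lower. The part of these cell types in the chemokine levels was not tested.

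The make-up of the chemokine transcripts changed with the label in both experiments. In the C2C12-labelled control libraries Cxcl2 held 83.3% ± 3.13 (SD, n = 3) of the summed FPKM of the 10 genes, and under LPS 98.2% ± 0.0408, while under LPS-MIC-1 Cxcl1 held 47.0% ± 9.81 and Cxcl5 44.2% ± 3.98. The sum itself was 209 FPKM in control, 8520 FPKM in LPS and 1056 FPKM in LPS-MIC-1 on average. In control muscle, Cxcl14 held 49.4% and Cxcl12 47.5% and their ranges overlapped, so that neither led beyond the spread. In LPS muscle the shares were 63.1% and 34.6%. In LPS-MIC-1 muscle Cxcl14 held 42.3%, followed by Cxcl9 with 28.4%, Cxcl10 with 11.1% and Cxcl1 with 9.98%, the last pair overlapping, and the sum was 128 FPKM on average, against 60.4 FPKM in LPS and 61.1 FPKM in control.

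**Figure D4:**
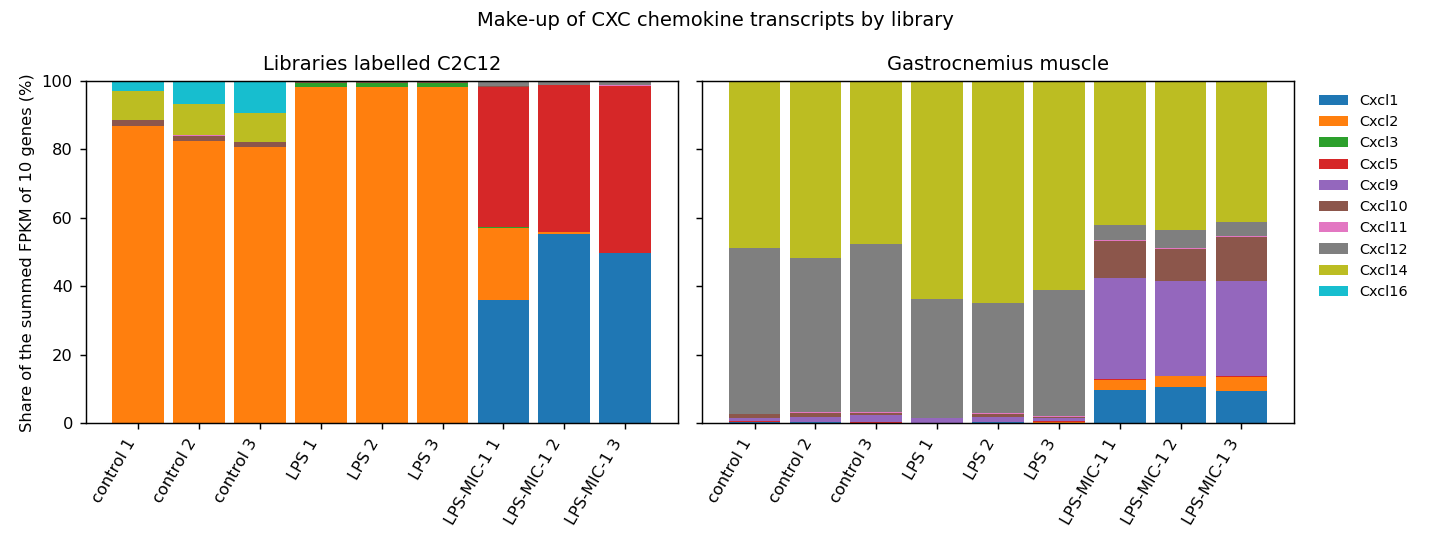
Stacked bars show, for each of the 18 libraries, the share of each gene in the summed FPKM of the 10 CXC chemokines, in percent. Cxcl2 fills most of the control and LPS bars labelled C2C12 and takes 20.9% of LPS-MIC-1 replicate 1, where the other replicates are almost wholly Cxcl1 and Cxcl5, and in muscle the LPS-MIC-1 bars gain Cxcl9, Cxcl10 and Cxcl1.

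Of 8 receptor genes for CXC chemokines, 4 passed the FPKM filter in the C2C12-labelled set. Among these, Ackr3 passed through the LPS-MIC-1 group alone and Cxcr3 through the control group alone, so the counts are given only as a description. Against LPS, LPS-MIC-1 had 2 of these 4 called higher and 1 lower, where 24.3% of all tested genes were called higher and 25.6% lower. The count of 1 lower was near that share. Ackr3, listed as Cxcr7, the scavenging receptor of Cxcl12, was listed at 0 in control, at 0.0317, 0 and 0.158 FPKM in LPS and at 28.0, 24.0 and 29.7 FPKM in LPS-MIC-1, a log2 difference of 7.50 (SE 0.318, limma adjusted p = 1.20e-07), and so appeared in the same libraries as its ligand. Cxcr2, the receptor of the ELR ligands, was at 0.663, 0.759 and 0.631 FPKM in control, 1.16, 1.72 and 1.299 FPKM in LPS and 4.74, 4.01 and 2.70 FPKM in LPS-MIC-1, a difference of 1.37 against LPS (limma adjusted p = 5.65e-04). Cxcr3, the receptor of Cxcl9, Cxcl10 and Cxcl11, was at 4.46, 4.55 and 3.20 FPKM in control and 1.58, 1.297 and 2.08 FPKM in LPS, where it was called lower (-1.26, limma adjusted p = 8.63e-04), and it was listed at 0 in LPS-MIC-1. Cxcr4, the other Cxcl12 receptor, varied from 0 to 3.45 FPKM within LPS-MIC-1 and was not called in any comparison. Cxcr5 was below the filter, at 2.05 to 2.28 FPKM in LPS and 0 to 0.0843 FPKM in LPS-MIC-1, while Cxcr1, Cxcr6 and Ackr1 did not exceed 0.139 FPKM.

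In muscle 4 receptors were tested, and against LPS 2 were called higher in LPS-MIC-1 and 0 lower. Over all tested genes, 9.67% were called higher and 5.44% lower. Both called receptors were atypical receptors that bind chemokines without the usual G-protein signal. Ackr3 was at 6.51, 7.52 and 6.06 FPKM in control, 5.25, 5.55 and 4.94 FPKM in LPS and 18.4, 19.1 and 16.4 FPKM in LPS-MIC-1, a difference of 1.76 (SE 0.0943, limma adjusted p = 1.25e-06). Ackr1, listed as Darc and known from red cells and venules, was at 1.06, 1.28 and 0.913 FPKM in control, 1.46, 1.23 and 1.14 FPKM in LPS and 7.33, 7.40 and 5.18 FPKM in LPS-MIC-1, a difference of 2.28 (SE 0.184, limma adjusted p = 1.48e-05). Cxcr2 stayed between 1.06 and 1.99 FPKM and Cxcr4 between 0 and 2.747 FPKM, neither called. Cxcr3 did not exceed 0.260 FPKM in muscle, also in LPS-MIC-1, the muscle group in which its ligands Cxcl9 and Cxcl10 were highest. Cxcr1, Cxcr5 and Cxcr6 did not exceed 0.118 FPKM.

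**Figure D5:**
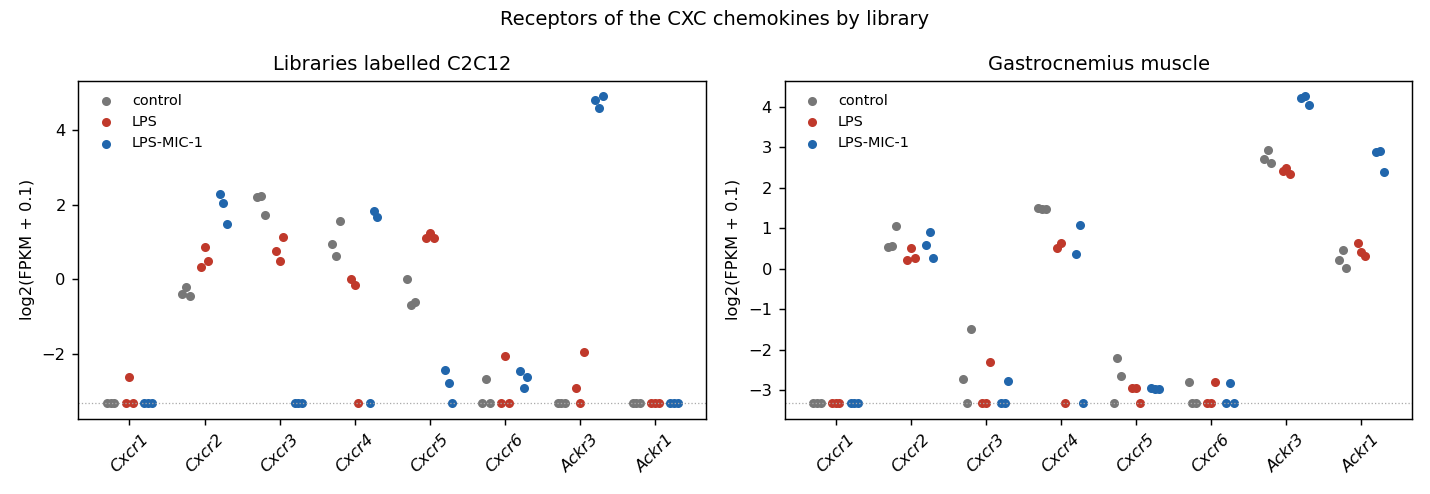
Points are log2(FPKM + 0.1) of 8 receptor genes in each library (3 per group, coloured by group), with a dotted line at 0 FPKM. Ackr3 rises from 0 to between 24.0 and 29.7 FPKM in the LPS-MIC-1 libraries labelled C2C12, and Ackr3 and Ackr1 lie above the other groups in LPS-MIC-1 muscle.

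Of 5 further CXC ligands, 2 were tested in each experiment. Cxcl13 in muscle and Ppbp in the C2C12-labelled set passed the filter through the LPS-MIC-1 group alone, so their calls are given only as a description. Cxcl13, which draws B cells through Cxcr5, was at 0.151, 0.0751 and 0 FPKM in control muscle, 0.153, 0.154 and 0.0758 FPKM in LPS and 5.29, 4.44 and 4.07 FPKM in LPS-MIC-1, and it was called higher by 4.38 against LPS (SE 0.446, limma adjusted p = 5.86e-05). In the C2C12-labelled set Cxcl13 was listed at 0 in control and LPS and at 2.43, 1.5005 and 3.30 FPKM in LPS-MIC-1, below the filter. There Ppbp, a platelet ligand of Cxcr2 that lies in the same cluster as Cxcl5, was called higher in LPS-MIC-1 than in LPS (4.62, limma adjusted p = 7.20e-06), with 4.43, 3.70 and 4.47 FPKM against 0.130, 0 and 0.131 FPKM. Pf4, another platelet chemokine, went the other way, from 1.39, 1.85 and 2.41 FPKM in LPS to 0.325, 0 and 0 FPKM (-3.58, limma adjusted p = 3.43e-04). In muscle Pf4 was between 1.71 and 4.88 FPKM and was not called, and Cxcl15 and Cxcl17 did not exceed 0.391 FPKM in any library.

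Genes upstream of the chemokines were read from lists of LPS sensing and NF-kB genes (11 genes) and of interferon signalling (11 genes). In LPS against control of the C2C12-labelled set, 6 of 11 LPS and NF-kB genes were called higher and 0 lower, led by Tnfaip3 (3.29), Nfkbiz (3.13) and Nfkbia (2.15), which encode inhibitors or modulators of NF-kB that it also induces. Of the 9 interferon genes tested, 0 were called there by limma and 7 had an unadjusted p under 0.05. Irf7, a transcription factor of the interferon response, was between 32.8 and 37.7 FPKM in control and between 274 and 282 FPKM in LPS without overlap, in a fit that also held the uneven LPS-MIC-1 libraries at 7.12, 0.568 and 0 FPKM. In LPS-MIC-1 against LPS, 6 of 11 LPS and NF-kB genes were called lower, led by Cd14 (-4.41), Tnfaip3 (-2.28) and Nfkbiz (-2.17), as were 5 of 9 interferon genes, led by Irf7 (-8.47), Stat2 (-5.20) and Irf9 (-3.59). None was called higher. Against control, LPS-MIC-1 had 3 of 11 LPS and NF-kB genes higher and 2 lower, with Cd14 at -2.87, Nfkb2 at 2.08 and Myd88 at -1.79, and 0 of 9 interferon genes higher and 2 lower, Irf9 (-2.52) and Ifngr2 (-1.31). In this last comparison 21.1% of all tested genes were called higher and 22.1% lower, so that the counts of both lists called in a direction, other than the absence of higher interferon genes, were near the background, while against LPS 25.6% of all tested genes were called lower and in LPS against control 10.9% higher.

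In muscle none of the 10 LPS and NF-kB genes and none of the 9 interferon genes tested was called by limma between LPS and control, and 3 of each list had an unadjusted p under 0.05. Calls between these groups covered 0.654% of all tested genes on the higher side and 0.591% on the lower. In LPS-MIC-1 against LPS, 4 of 10 LPS and NF-kB genes were higher and 0 lower, led by Cd14 (3.37, SE 0.561), the LPS co-receptor, Nfkbia (2.26, SE 0.0631) and Nfkbiz (2.00, SE 0.164), with limma adjusted p-values of 0.00103, 2.54e-08 and 1.60e-05. Over all tested genes, 9.67% were called higher and 5.44% lower in this comparison. Cd14 was at 3.39, 3.74 and 15.5 FPKM in the LPS-MIC-1 replicates, highest in the library with the most macrophage markers. Of the 9 interferon genes, 4 were higher and 0 lower, namely Irf7 (3.46), Irf1 (1.92), Stat2 (1.89) and Irf9 (1.87), in the same libraries in which Cxcl9 and Cxcl10 were high and Cxcl11 was not. Ifnb1 was listed at 0 in all 9 muscle libraries and Ifng did not exceed 0.0727 FPKM. Against control, LPS-MIC-1 had 5 of 10 LPS and NF-kB genes higher, led by Cd14 (3.31), Nfkbia (2.41) and Nfkbiz (2.25), and 5 of 9 interferon genes, among them Irf7 (3.28) and Irf9 (1.84). Over all tested genes, 9.33% were called higher there and 6.12% lower.

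The last list held 5 genes that act on chemokines or their transcripts. Adam10 and Adam17 encode the sheddases that release Cxcl16, Dpp4 encodes a protease that clips Cxcl10 and Cxcl12, and Zfp36 and Zfp36l1 encode proteins that destabilise AU-rich transcripts such as those of the ELR ligands. Between LPS and control 0 of 4 tested were called by limma in the C2C12-labelled set and 0 of 3 in muscle, with an unadjusted p under 0.05 for 3 and 1 of them. Over all tested genes, 10.9% were called higher and 10.0% lower in the C2C12-labelled set, and 0.654% and 0.591% in muscle. In LPS-MIC-1 against LPS of the C2C12-labelled set 2 were lower, Zfp36 (-4.80, limma adjusted p = 2.12e-07) and Adam17 (-3.46, limma adjusted p = 1.12e-04), where 25.6% of all tested genes were called lower, and against control 4 of 4 were lower (22.1% of all tested genes), led by Adam17 (-4.02), Zfp36 (-3.70) and Adam10 (-1.4967). Zfp36 there was at 980 to 1039 FPKM in LPS and at 55.2, 28.2 and 29.8 FPKM in LPS-MIC-1. In muscle Zfp36 went the other way, from 8.37, 10.0 and 8.22 FPKM in LPS to 63.1, 67.5 and 67.7 FPKM in LPS-MIC-1 (2.89, SE 0.0762, limma adjusted p = 1.81e-08), and it was the only one of 3 tested that was called, also against control (2.73). Of all tested muscle genes, 9.67% were called higher against LPS and 9.33% against control.

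The genes whose log2(FPKM + 0.1) followed a chemokine most closely over the 9 libraries of an experiment were picked by Pearson's r among the other genes tested. In the C2C12-labelled set these were Fscn1, Gm1943 and Ptrf for Cxcl1 (r = 0.999 for the first), Pnpla8, Sec24d and Ets2 for Cxcl10, and Thbs2, Islr and Tnnt1 for Cxcl12. In muscle they were Uba7, Zfp623 and Spsb1 for Cxcl1 (r = 0.998 for the first), Figf, Ifitm2 and Ptp4a3 for Cxcl10 (0.991), and Abcc5, Ltbp4 and Cbfb for Cxcl12 (0.997). With groups this far apart such values were common, and 1255 of 10868 genes in the C2C12-labelled set and 865 of 9469 in muscle had an r above 0.95 with Cxcl1.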

How the data were processed

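RNA-seq values were taken from tables with 1 FPKM value per gene and library, 9 libraries labelled C2C12 and 9 of gastrocnemius muscle. The authors made these deposited FPKM values from kallisto pseudoalignments (mm9 and DESeq2 are also named in the submitters' processing notes) and the study's methods name tximport; the 2 tables were normalized separately, so no test was made across them. Muscle values came with 11 unnamed columns, 9 of them per-sample values of unstated samples, which were not used. The authors' DESeq2 comparison tables (base means, log2 fold changes with standard errors, p-values) were not used. Reads per library are unknown. Low FPKM values of 85.0% of 2363 low genes in the C2C12-labelled table and 83.1% of 3381 in muscle lay on whole multiples of a per-gene step (tolerance 0.05 of a step), from which read numbers of 10 or fewer were read.

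Groups came from the sample labels. limma 3.58.1 in R 4.3.3 was fitted per experiment on log2(FPKM + 0.1), with group means, a mean-variance trend and Benjamini-Hochberg adjustment over genes with a mean FPKM above 1. The fit was also run on simulated data for LPS against control, with the same spread in every group of a gene. That simulation does not cover groups of unequal spread or groups listed at 0, as found here. The chemokines and all lists were chosen with earlier results of these data known: all members, receptors and other CXC ligands are named, with the 3 largest called changes of each input list per comparison, the Lcn2 and Saa3 check and the 3 genes most like Cxcl1, Cxcl10 and Cxcl12, and genes named beyond these were chosen after their values were seen; a gene that this rule names is not reported here. Alternatives were pseudocounts of 1 and 0.01, other FPKM filters, 2 other scalings, no trend, only the libraries compared, array weights, a replicate block, the other p threshold and leaving out each library. RefSeq names were matched for 10 of 10 members (GRCm38.p6).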

Additional observations from a re-analysis of the deposited data

Results flagged for a closer look

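For 8 comparisons every library of a group moved one way in the C2C12-labelled set and the opposite way in muscle, and this difference between the experiments was not tested, since their tables were normalized separately. Groups without overlap were common over all tested genes. Each direction held 39.4% to 43.7% of them in the C2C12-labelled set and 17.7% to 33.4% in muscle. The share of all genes with opposite directions was not computed, so the 8 are given only as a description. Cxcl2 in LPS-MIC-1 stood below LPS by a mean difference of -8287 FPKM in the C2C12-labelled set and above it by 4.09 FPKM in muscle. Cxcl10 in LPS-MIC-1 differed from LPS by -20.5 FPKM in the C2C12-labelled set and by 13.9 FPKM in muscle, and from control by -2.58 and 13.6 FPKM. Cxcl12 in LPS-MIC-1 differed from LPS by 13.8 FPKM in the C2C12-labelled set and by -15.0 FPKM in muscle, and from control by 13.8 and -23.2 FPKM. Cxcl14 in LPS differed from control by -7.65 FPKM in the C2C12-labelled set and by 7.95 FPKM in muscle. In LPS-MIC-1 the Cxcl14 differences were -10.2 and 15.9 FPKM from LPS and -17.8 and 23.8 FPKM from control.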

How the results depend on the processing

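Of 45 fitted gene differences, 32 kept their direction and their side of the thresholds under every alternative that gave a value. The number of chemokines called in muscle fell from 5 to 2 in both LPS-MIC-1 comparisons when a mean above 5 FPKM was required, since only 3 were then tested. Leaving out 1 library at a time, the C2C12-labelled counts ranged from 2 to 4 (LPS against control, 3 with all libraries), 7 to 9 (LPS-MIC-1 against LPS, 9) and 6 to 7 (LPS-MIC-1 against control, 6), and the muscle counts from 0 to 1, 4 to 5 and 4 to 5. Reversed signs concerned differences that were not called: Cxcl12 (LPS against control, C2C12-labelled) at -0.001502 and Cxcl11 (LPS-MIC-1 against control, C2C12-labelled) at -0.84 under quantile normalization, while leaving out 1 library gave Cxcl11 values from -0.27 to 0.74 in that comparison (C2C12-labelled, -0.27 without LPS-MIC-1 replicate 1) and Cxcl9 values from -0.35 to 0.054 in muscle LPS against control (0.054 without control replicate 3, 0.037 without LPS replicate 3). Quantile normalization also ended the calls of Cxcl10 in the C2C12-labelled set against control, in LPS (adjusted p = 0.00276) and in LPS-MIC-1 (0.00169), and moved the median of all muscle genes by -0.107 and -0.110 in the LPS-MIC-1 comparisons, with 53.9% in place of 64.0% of the calls against LPS on the higher side. With only the 6 libraries compared, Cxcl2, Cxcl3 and Cxcl11 lost their calls in the C2C12-labelled LPS-MIC-1 against LPS (adjusted p from 0.00102 to 0.00248), as Cxcl3 and Cxcl14 did at a pseudocount of 0.01 (0.00196 and 0.00115), while Cxcl2 in LPS against control was called there (6.98e-11) and with array weights (9.14e-06). The cause of these losses was not tested. The all-gene count in muscle LPS against control went from 118 to 71 (pseudocount 1), 57 (mean above 5 FPKM) and 52 (p under 0.001), LPS-MIC-1 against LPS from 1431 to 2158 (no filter) and 656 (mean above 5 FPKM), and LPS-MIC-1 against control from 1464 to 2240 and 677.

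Same-numbered libraries did not deviate together (r from -0.0757 to 0.0573 in the C2C12-labelled set and -0.0540 to 0.0823 in muscle), so the numbers were not taken as pairs. With the replicate block, 2, 8 and 6 chemokines were called in the C2C12-labelled set (LPS against control, LPS-MIC-1 against LPS and against control) and 0, 5 and 5 in muscle, with Cxcl11 losing its calls in LPS against control and in LPS-MIC-1 against LPS.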
